A study of Mus musculus with 7 samples.

Results

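The aldo-keto reductases are a superfamily of enzymes that use NADPH or NADH to reduce aldehydes and ketones, among them sugars, lipid aldehydes, retinal, prostaglandins and steroid hormones. In steroid-producing tissues of the mouse, members of the 1C and 1B subfamilies inactivate progesterone or clear the aldehyde that is split off when cholesterol is turned into pregnenolone. Other members are housekeeping enzymes of most cells. The 9 genes described here (Akr1cl, Akr1b7, Akr1c18, Akr1c14, Akr1c12, Akr1c13, Akr1b3, Akr1b8 and Akr1a1) were found by symbol among 23282 entries of a count table. They were chosen with the counts of both groups known, so their difference between the groups is given as a description, and the calls counted for them below support nothing.

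The counts came from QuantSeq, which reads 1 short tag near the 3' end of each captured mRNA. The cells were tumour cells sorted for the red fluorescent protein tdTomato from adult C57BL/6 mice with glioblastoma, a malignant brain tumour, and the comparison asks what a knockout of the kinase gene Fyn changes in them. There were 4 libraries of Fyn-KO tumours and 3 libraries of WT tumours, each from 1 mouse, with no treatment or time named. How the tumours were made, which part of Fyn was altered and whether the host carried the alteration are not stated in the labels.

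The Fyn-KO libraries held 8976745 to 10396507 counts and the WT libraries 11911864 to 16371244. Fyn itself stood at 74.5 to 189.8 counts per 1000000 counts of the library (CPM) in Fyn-KO and at 719.9 to 1604 CPM in WT, so its 3' tags were lower but not absent in Fyn-KO. The libraries did not all bear out the tissue in their labels. Of 10 glial tumour markers, all tested, 7 fell in Fyn-KO by edgeR's quasi-likelihood test with Benjamini-Hochberg adjusted p under 0.05. Over all genes tested, 19.0% rose and 3.51% fell. The summed level of the glial markers was 172 to 916 CPM in Fyn-KO, against 8363 to 13796 CPM in WT. Of 11 ovarian granulosa and luteal markers, 10 could be tested and 8 rose, with sums of 3667 to 5298 CPM in Fyn-KO, against 0.168 to 123 CPM in WT. Of 10 adrenal cortex markers, 7 could be tested and 4 rose, with sums of 9604 to 14561 CPM in Fyn-KO, against 0.157 to 335 CPM in WT. The adrenal markers Mc2r and Cyp11b2 had no count in any library, and Cyp21a1 stood at 1.49 CPM or less. Of 6 testis Leydig markers, the 3 that could be tested rose, and the list summed to 262.5 to 317 CPM in Fyn-KO, with no count in WT. Hsd17b3 had no count in any library, and Insl3 was counted in Fyn-KO replicate 1 alone. Of 7 lung markers, the 4 that could be tested fell, and the list summed to 0.107 to 7.98 CPM in Fyn-KO, against 177 to 1087 CPM in WT. Of 8 liver markers, 1 of 3 tested fell, and the list summed to 118 to 173 CPM in Fyn-KO, against 272 to 677 CPM in WT. Of 6 markers of vas deferens and kidney, 1 could be tested and did not pass, and the list summed to 3.01 to 7.11 CPM in Fyn-KO, against at most 0.0839 CPM in WT. The lists share genes: Lhcgr is on the ovarian and Leydig lists, and Nr5a1 on the adrenal and Leydig lists. Genes that are also on the list of steroid hormone synthesis below include Star, Hsd3b1 and Cyp11b1 of the adrenal list. Cyp19a1 and Hsd17b7 of the ovarian list and Cyp17a1 of the Leydig list are on it too. The sums of these lists are therefore not separate signals. The part of the markers in the results below was not tested, and in bulk RNA fewer cells of a type and less RNA per cell cannot be told apart.

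The WT libraries also differed more among themselves in which entries they counted. Of 4827 entries at 100 CPM or more in 1 WT library, 2002 (41.5%) lay under 1 CPM in another, against 1 of 2524 (0.0396%) among the Fyn-KO libraries. An absence in WT is therefore given below with its floor of 3 counts in the smallest library, 0.252 CPM, which covers counting error only.

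Taken as a family, the 9 genes summed to 3337, 2998, 3958 and 3175 CPM in the Fyn-KO libraries, against 390.04, 389 and 544 CPM in the WT libraries. The lowest Fyn-KO library lay above the highest WT library. Each Fyn-KO library counted 8 of the 9 genes, all but Akr1c12. The WT libraries counted 3, 2 and 3 of them. The family also had another make-up in each group. Akr1cl took 60.0%, 61.0%, 67.2% and 61.7% of the family's CPM in Fyn-KO, and Akr1b7 took a further 21.03% to 24.4%, whereas neither had a count in WT. Akr1a1 took 7.83% to 11.1% in Fyn-KO and 67.6%, 73.0% and 97.1% in WT.

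**Figure D1:**
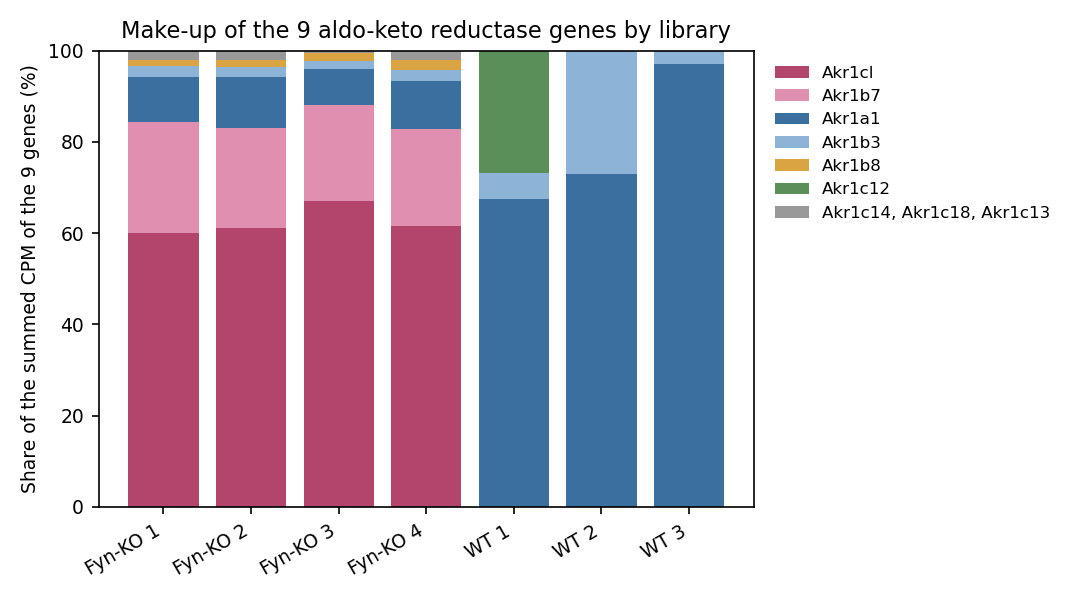
Share of the summed CPM of the 9 aldo-keto reductase genes (y axis, percent) held by each gene in each library (x axis, 4 Fyn-KO and 3 WT libraries). Akr1cl and Akr1b7 fill most of each Fyn-KO bar, while Akr1a1 holds 67.6% to 97.1% of each WT bar and Akr1c12 appears in WT replicate 1 alone.

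By edgeR's test across 13122 genes, 8 of the 9 genes could be tested, since Akr1c12 did not pass the filter on low counts. Of these 8, 6 were called higher in Fyn-KO and none lower, where 19.0% of all genes tested were called higher and 3.51% lower. The same 6 had each Fyn-KO library above each WT library, as had 30.1% of all genes tested, and none had each Fyn-KO library below each WT library, as had 7.32%. Without Fyn-KO replicate 1, 2 or 4 the count was 5, because Akr1c14 no longer passed. The fitted log2 fold changes of the 8 had a median of 9.75, beside 0.45 over all genes tested. The contrast is the one the genes were chosen on and the filter kept genes through the group where they were high, so nothing is read from these counts.

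Akr1cl was the most abundant of the family in Fyn-KO and stood 19th by mean CPM among all entries there. It stood at 2002, 1829.9, 2658 and 1957 CPM in the Fyn-KO libraries (2112 ± 372, mean ± SD, n = 4) and had no count in the WT libraries (n = 3). The groups did not overlap, and Fyn-KO replicate 3 was the highest. Against the floor, Akr1cl was at least 8385-fold higher in Fyn-KO. The gene (ENSMUSG00000025955.13) lies on the minus strand of chr1:65012689-65032759 (GRCm38, GENCODE M21), away from the blocks that hold the rest of the 1B and 1C subfamilies. Its coding sequence was nonetheless nearest to that of Akr1c18, with 77.5% identical bases, among 16 other genes of the 1A to 1E and 7A subfamilies, and encodes 322 amino acids. The annotation also places Gm8550 in Akr1cl, Gm13857 in Akr1b7 and Gm14546 in Akr1b3 on the opposite strand. It places Gm18857 in Akr1c14 on the same strand. None of them is an entry of the count table, and the labels do not state whether counting used strand.

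The 5 entries nearest to Akr1cl over the 7 libraries, by Euclidean distance of log2 of CPM plus 1 and without predicted genes, were Prlr, Mgarp, Kcnk3, Sfrp4 and Smarca1. Prlr, the prolactin receptor, was the nearest at a distance of 0.85 and stood at 1761 ± 205 CPM in Fyn-KO, against 0.0668 ± 0.0619 CPM in WT (SD, n = 4 and 3). The distances of the other genes were 2.20 for Mgarp, 2.62 for Kcnk3, 2.94 for Sfrp4 and 3.68 for Smarca1. The measure takes in both the level and the gap between the groups. Prlr and Sfrp4 are also on the list of ovarian markers.

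Akr1b7, first known as the mouse vas deferens protein, reduces the isocaproaldehyde that is released from cholesterol in steroid-producing cells and can also make prostaglandin F2alpha. It stood at 815, 660.03, 832 and 669.6 CPM in Fyn-KO (744 ± 92.2, SD, n = 4) and had no count in WT. The groups did not overlap, and Akr1b7 was at least 2956-fold higher in Fyn-KO against the floor. Akr1cl stood 2.46, 2.77, 3.19 and 2.92 times above Akr1b7 in the Fyn-KO libraries, so the order of this pair was the same in each. QuantSeq gives tags from 1 end of a transcript, and CPM was not divided by transcript length for these comparisons between genes.

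The 250 bases before the starts of Akr1cl and Akr1b7 (RefSeq, GRCm38.p6) are shown because these genes lead the family in Fyn-KO. Capitals mark matches, on either strand, to the site CAAGGNCA known for the steroidogenic factor SF-1, to the nuclear receptor half-site AGGTCA, to CCAAT and to TATAAA. The Akr1cl stretch is the minus strand of chr1:65032760-65033009, and the Akr1b7 stretch is the plus strand of chr6:34412112-34412361.
Akr1cl: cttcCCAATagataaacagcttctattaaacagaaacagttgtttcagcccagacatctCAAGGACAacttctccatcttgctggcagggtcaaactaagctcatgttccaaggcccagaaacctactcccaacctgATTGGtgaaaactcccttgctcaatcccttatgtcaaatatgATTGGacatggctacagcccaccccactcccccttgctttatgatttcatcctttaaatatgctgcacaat
Akr1b7: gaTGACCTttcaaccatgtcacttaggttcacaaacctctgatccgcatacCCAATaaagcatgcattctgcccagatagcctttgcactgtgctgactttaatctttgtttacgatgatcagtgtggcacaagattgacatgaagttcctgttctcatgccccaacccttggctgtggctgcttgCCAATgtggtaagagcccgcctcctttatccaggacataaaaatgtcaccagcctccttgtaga

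The Akr1cl stretch held 1 match to CAAGGNCA, starting 191 bases before the start, and 3 matches to CCAAT. The Akr1b7 stretch held 1 match to AGGTCA on the other strand, 248 bases before the start, and 2 matches to CCAAT. Of the 8 genes with a window in the reference table, 1 held CAAGGNCA (Akr1cl), 1 held AGGTCA (Akr1b7), 3 held CCAAT (Akr1cl, Akr1b7 and Akr1c14) and 1 held TATAAA (Akr1b8). TGACNNNGC, the antioxidant response element, was found in 1 window, that of Akr1cl, where its match on the other strand overlaps none of the other matches. The letters CAAGGNCA occurred in 5.53%, AGGTCA in 14.0%, CCAAT in 33.8%, TATAAA in 12.4% and TGACNNNGC in 10.2% of 32851 promoter windows of the same length. Akr1b3 had no window. CAAGGNCA and AGGTCA can overlap in sequence, although no match to one overlapped the other in these stretches.

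The members of the 1C block on chromosome 13 were lower than Akr1cl and varied more. Akr1c14, a 3alpha-hydroxysteroid dehydrogenase that turns dihydrotestosterone and dihydroprogesterone into their 3alpha-hydroxy forms, stood at 34.7, 40.8, 11.7 and 31.0 CPM in Fyn-KO, against 0, 0 and 0.168 CPM in WT. WT replicate 3 held 2 counts of it, the only counts of a 1C gene in WT apart from Akr1c12, and the ratio of pooled counts was 615 (95% exact counting interval 169.8 to 5084). Akr1c18, the 20alpha-hydroxysteroid dehydrogenase that inactivates progesterone in the rodent ovary, stood at 22.1, 13.4, 7.44 and 25.8 CPM in Fyn-KO and had no count in WT, at least 68.2-fold higher against the floor. Neither gene overlapped between the groups. Akr1c14 stood above Akr1c18 in each Fyn-KO library, by 1.57, 3.05, 1.57 and 1.20 times, but their ranges over the libraries overlapped.

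Akr1c12 and Akr1c13, a closely related pair of dehydrogenases with broad substrates, were counted in opposite groups. Akr1c13 stood at 7.46, 5.10, 0.985 and 8.13 CPM in Fyn-KO and had no count in WT, at least 21.5-fold higher against the floor. Akr1c12 had no count in Fyn-KO, and in WT it stood at 104 CPM in replicate 1 (1332 counts) and at 0 in replicates 2 and 3. The WT level of Akr1c12 therefore rests on 1 library, and the groups overlap at 0. With the counts of both genes added up, the Fyn-KO libraries stood between 0.985 and 8.13 CPM and the WT libraries at 104, 0 and 0 CPM. The fitted log2 fold change of Akr1c13 alone was 8.91 and that of the sum was -2.73, a turn that WT replicate 1 brings about. Lung marker sums were 623 CPM in WT replicate 1, 177 CPM in replicate 2 and 1087 CPM in replicate 3, and their part in the Akr1c12 counts was not tested.

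The coding sequences of Akr1c12 and Akr1c13 shared 96.2% of aligned bases (37 differences), the highest of all pairs compared. The last 500 bases of their transcripts shared 91.4%, and 54 of the 451 words of 50 bases in each (11.97%) also occurred in the other gene. The stretches before their starts are shown because they are nearly the same while the counts are not. Capitals mark the 12 alignment positions at which the stretches differ, 1 of them a base that only Akr1c13 has. Akr1c12 is the minus strand of chr13:4279400-4279645 and Akr1c13 the plus strand of chr13:4190937-4191183 (RefSeq, GRCm38.p6), with 95.1% identity.
Akr1c12: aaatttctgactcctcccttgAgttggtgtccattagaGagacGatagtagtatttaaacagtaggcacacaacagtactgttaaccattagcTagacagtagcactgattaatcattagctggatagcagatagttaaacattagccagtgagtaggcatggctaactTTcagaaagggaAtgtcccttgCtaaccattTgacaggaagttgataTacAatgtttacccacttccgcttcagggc
Akr1c13: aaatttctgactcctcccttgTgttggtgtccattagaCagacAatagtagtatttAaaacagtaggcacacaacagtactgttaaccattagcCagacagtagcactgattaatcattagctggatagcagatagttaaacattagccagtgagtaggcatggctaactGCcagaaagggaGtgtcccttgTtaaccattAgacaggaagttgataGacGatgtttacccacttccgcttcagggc

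None of the 5 motifs was found in either stretch.

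Of the 1B genes on chromosome 6, Akr1b8 was counted in Fyn-KO alone and Akr1b3 in both groups. Akr1b8, which reduces lipid aldehydes and retinal and was first found as a gene induced by fibroblast growth factor, stood at 49.97, 48.4, 73.0 and 65.9 CPM in Fyn-KO (59.3 ± 12.1, SD, n = 4) and had no count in WT, at least 236-fold higher against the floor. Akr1b3 is aldose reductase, which turns glucose into sorbitol in the polyol pathway. It stood at 76.9, 67.7, 64.3 and 81.8 CPM in Fyn-KO (72.7 ± 8.09) and at 22.2, 105 and 15.5 CPM in WT (47.6 ± 49.96). The Fyn-KO libraries lay within the range of the WT libraries, of which replicate 2 was the highest.

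The counts of Akr1b3 are uncertain, since an annotated copy of it had nearly the same counts in most libraries. How reads that match both entries were counted is not stated, and the part of the copies was not tested. The entry Gm6644, which RefSeq lists as a transcribed pseudogene with the synonym Akr1b3p, had 723, 720, 588 and 742 counts in Fyn-KO and 283, 1955 and 185 in WT. Akr1b3 had 722, 704, 587 and 734 counts in Fyn-KO and 283, 1722 and 185 in WT. The entries were within 5% of each other in 6 of 7 libraries. Of the last words of Akr1b3, 61 of 451 (13.5%) occurred in transcripts of Gm6644, Gm12138 or Gm6736. Akr1b8 shared 11 of 451 (2.44%) with Gm5649, and Akr1cl, Akr1b7, Akr1c14, Akr1c18 and Akr1a1 shared none with an annotated transcript of another gene.

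Akr1a1, aldehyde reductase, which takes part in vitamin C synthesis in the mouse, was the steadiest member. It stood at 329, 333, 309.99 and 335 CPM in Fyn-KO (327 ± 11.5, SD, n = 4) and at 264, 284 and 528 CPM in WT (359 ± 147, n = 3). The Fyn-KO libraries lay within the WT range, and WT replicate 3 was the highest. The Fyn-KO mean was 0.911 times the WT mean, and without WT replicate 3 the fitted log2 fold change turned from -0.31 to 0.37. The gene lies on the minus strand of chr4:116636510-116651680.

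**Figure D2:**
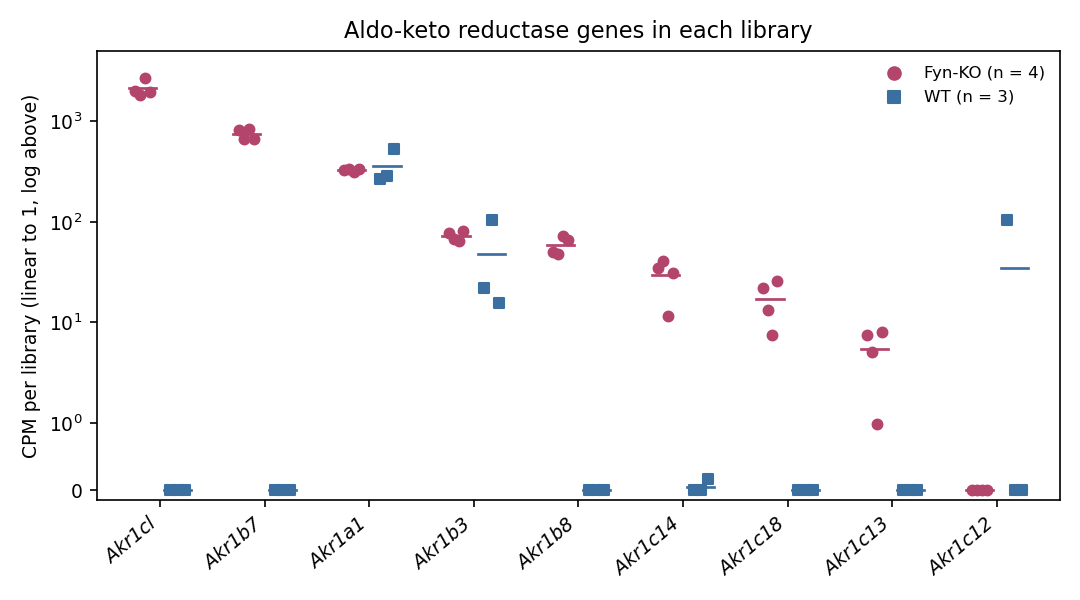
CPM of each aldo-keto reductase gene (x axis, ordered by mean in Fyn-KO) in each library (y axis, linear up to 1 and logarithmic above). Circles are the 4 Fyn-KO libraries, squares the 3 WT libraries and bars the group means. Akr1a1 and Akr1b3 overlap between the groups, and Akr1c12 is counted in WT replicate 1 alone.

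In order of level, the Fyn-KO libraries held Akr1cl, Akr1b7, Akr1a1, Akr1b3, Akr1b8, Akr1c14, Akr1c18 and Akr1c13. The neighbours Akr1b3 and Akr1b8, Akr1c14 and Akr1c18, and Akr1c18 and Akr1c13 overlapped in their ranges, and the other neighbours did not. The spread between Fyn-KO libraries, as SD over mean, was 3.51% for Akr1a1, 11.1% for Akr1b3, 12.4% for Akr1b7, 17.6% for Akr1cl and 20.4% for Akr1b8. It was 42.5% for Akr1c14, 48.5% for Akr1c18 and 59.6% for Akr1c13.

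The 3 genes of the 1C block were each lowest in Fyn-KO replicate 3, while Akr1cl, Akr1b7 and Akr1b8 were each highest there. Replicate 3 over the mean of the other 3 libraries was 0.330 for Akr1c14, 0.364 for Akr1c18 and 0.143 for Akr1c13. It was 1.38 for Akr1cl, 1.33 for Akr1b8 and 1.16 for Akr1b7. Akr1b3 and Akr1a1 were also lowest in replicate 3 by library totals, at 0.851 and 0.933 times the mean of the other 3, but not with TMM scaling, at 0.944 and 1.03 times. With TMM scaling these ratios were 0.366, 0.404 and 0.158 for the 1C genes and 1.53, 1.48 and 1.29 for Akr1cl, Akr1b8 and Akr1b7. In the same replicate the summed ovarian granulosa and luteal markers were 0.711 times and the summed adrenal cortex markers 0.677 times the mean of the other 3, and the glial tumour markers 3.34 times. With TMM scaling these were 0.788, 0.751 and 3.71 times. Other steroid genes were less low or not low there. By library totals the summed testis Leydig markers were 0.936 times and the summed genes of steroid hormone synthesis 0.855 times. With TMM scaling they were 1.04 and 0.948 times. Single genes differed by library totals, with Hsd3b1 at 0.564, Star at 0.823 and Cyp11a1 at 1.14 times. Rn45s, the precursor of ribosomal RNA, had 1519503 counts in replicate 3, against 946692 to 1108069 in the other Fyn-KO libraries. It was the most abundant entry in both groups, at 105460 to 166325 CPM in Fyn-KO, against 14069 to 29153 CPM in WT. Its counts are part of the library totals from which CPM was computed, and their part in the results was not tested. Replicate 3 was picked out after the values were seen, and the part of the marker genes in the split was not tested.

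**Figure D3:**
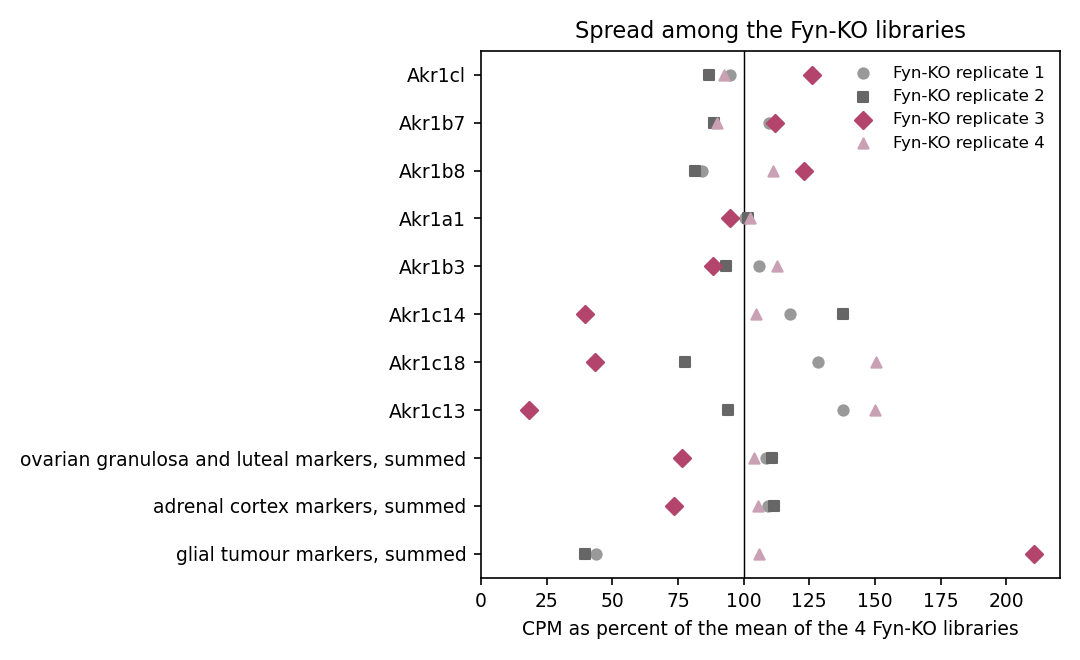
CPM of 8 aldo-keto reductase genes and of 3 summed marker lists in each Fyn-KO library, as percent of the mean of the 4 libraries (x axis). Replicate 3 (diamonds) is lowest for Akr1c14, Akr1c18, Akr1c13, Akr1b3, Akr1a1 and the ovarian and adrenal markers, and highest for Akr1cl, Akr1b7, Akr1b8 and the glial markers.

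The block on chromosome 13 spans 560.2 kb (4049011 to 4609174) and holds, in order, Akr1c14, Akr1c18, Akr1c13, Akr1c19, Akr1c12, Akr1c6, Akr1c20, Akr1c21 and Akr1e1. Akr1c19 and Akr1c20 had no count in any library, Akr1c6 had 1 count in Fyn-KO replicate 1, and Akr1c21, a kidney enzyme of steroid metabolism, had 14 and 7 counts in Fyn-KO replicates 1 and 4. The 1B block on chromosome 6 spans 121 kb (34302434 to 34423142) with Akr1b3, Akr1b8, Akr1b10 and Akr1b7 in that order. Akr1b7 stood at 744 CPM in Fyn-KO beside Akr1b10 at 46.3 CPM, although their coding sequences share 89.2% of bases.

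**Figure D4:**
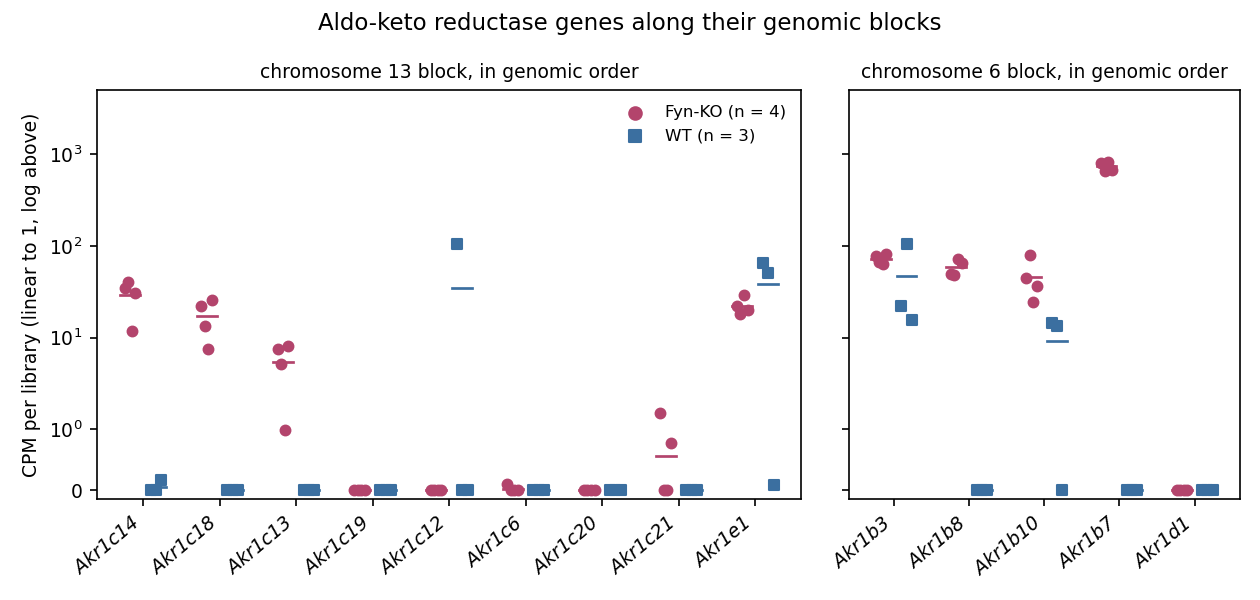
CPM (y axis, linear up to 1 and logarithmic above) of aldo-keto reductase genes in genomic order along their blocks on chromosome 13 and chromosome 6 (x axis). Circles are the 4 Fyn-KO libraries, squares the 3 WT libraries and bars the group means. Akr1c14, Akr1c18 and Akr1c13 at one end of the chromosome 13 block are counted in Fyn-KO, with no count in either group for Akr1c19 beside them. Akr1d1 lies farther along chromosome 6.

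The other genes of the superfamily did not pass the test. Of 11 on the list, 6 could be tested, and none rose or fell, where 19.0% of all genes tested rose and 3.51% fell. At an unadjusted p under 0.05 (edgeR), 2 of them were higher. Akr7a5, which reduces succinic semialdehyde and aflatoxin aldehydes, missed the threshold at 101, 106, 90.9 and 144 CPM in Fyn-KO, against 0.783, 8.12 and 0 CPM in WT (log2 fold change 5.44 ± 1.75 SE, edgeR adjusted p = 0.0564). The groups did not overlap, and Akr7a5 passed without WT replicate 2 (adjusted p = 0.0114 in edgeR) or WT replicate 3 (0.0177). Akr1b10 stood at 46.3 ± 23.7 CPM in Fyn-KO, against 9.29 ± 8.06 CPM in WT (SD, n = 4 and 3, edgeR adjusted p = 0.417). Akr1e1, an anhydrofructose reductase, stood at 22.2 ± 4.85 CPM in Fyn-KO, against 64.5, 50.5 and 0.0839 CPM in WT (edgeR adjusted p = 0.833).

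Kcnab1, Kcnab2 and Kcnab3, the beta subunits of voltage-gated potassium channels that carry an aldo-keto reductase fold, were uneven across libraries. Kcnab3 stood at 89.4 ± 17.5 CPM in Fyn-KO, against 155, 0 and 0 CPM in WT, Kcnab2 at 1.23 ± 1.66 CPM in Fyn-KO, against 0, 0 and 67.3 CPM in WT, and Kcnab1 at 3.29 ± 2.63 CPM in Fyn-KO with no count in WT. Their edgeR adjusted p were 0.880, 0.360 and 0.0550. Kcnab3 passed without WT replicate 1 and Kcnab1 without Fyn-KO replicate 1. DESeq2 called Akr7a5 and Kcnab1 higher. Akr1d1, the steroid 5beta-reductase of liver, had no count in any library.

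Of 27 tested of 30 listed carbonyl reductases, short-chain and alcohol dehydrogenases and aldehyde dehydrogenases, 7 rose, none fell and 20 did not pass, where 19.0% of all genes tested rose. By p, the first were Aldh3b1, Dhrs3, Cbr4 and Aldh1a1. Aldh1a1, a retinaldehyde dehydrogenase, stood at 1329.8 ± 187 CPM in Fyn-KO, against 9.21 ± 12.7 CPM in WT (SD, n = 4 and 3), 144 times higher, with an edgeR log2 fold change of 7.09 ± 1.41 (SE) and adjusted p of 0.0121. WT replicate 1 held most of its WT level, with 23.7 CPM against 0.305 and 3.61 CPM in replicates 2 and 3, and without it the log2 fold change was 9.05. Aldh3b1, an aldehyde dehydrogenase of lipid aldehydes, stood at 50.8 ± 6.26 CPM in Fyn-KO with no count in WT, at least 202-fold higher. Cbr4, a mitochondrial carbonyl reductase, stood at 18.3 ± 4.51 CPM in Fyn-KO with no count in WT. Dhrs3, a retinaldehyde reductase, stood at 64.0 ± 5.20 CPM in Fyn-KO and had 1 count in all WT libraries together. Over the list, log2 fold changes had a median of 1.90, beside 0.45 over all genes, and 1 gene was lower at an unadjusted p under 0.05 (edgeR) and 1 by DESeq2. Without WT replicate 1, 12 genes rose, and without WT replicate 2, 13 rose and 1 fell.

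Of 22 genes of NADPH supply and targets of the oxidative stress factor NRF2, 3 rose, none fell and 19 did not pass. Over all genes tested, 19.0% rose and 3.51% fell. Of the 22, 10 had each Fyn-KO library above each WT library, as had 30.1% of all genes tested. Only 1 had each Fyn-KO library below each WT library, as had 7.32%. Idh1, a cytosolic source of NADPH, stood at 1776 ± 688 CPM in Fyn-KO, against 249 ± 80.7 CPM in WT (7.14 times higher, edgeR adjusted p = 0.0121). Prdx1, a peroxidase, stood at 964 ± 259 CPM in Fyn-KO, against 294 ± 95.7 CPM in WT (3.27 times higher, edgeR adjusted p = 0.0121), and Ftl1, the ferritin light chain, at 803 ± 91.3 CPM in Fyn-KO, against 374 ± 31.8 CPM in WT (2.15 times higher, edgeR adjusted p = 0.0457). Ftl1 no longer passed by DESeq2, with no filter, or without Fyn-KO replicate 1, 2 or 4 or WT replicate 1 or 2. Txnrd1, a thioredoxin reductase, did not pass at 75.0 ± 15.8 CPM in Fyn-KO, against 325 ± 344 CPM in WT (edgeR adjusted p = 0.0873). Over the list, log2 fold changes had a median of 1.009, beside 0.45 over all genes. At an unadjusted p under 0.05 (edgeR) 2 genes were lower, and 1 by DESeq2. Without WT replicate 1, 5 genes rose, and without WT replicate 2, 9 rose and 2 fell.

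Of 14 tested of 17 genes of prostaglandin synthesis and its receptors, 9 rose, none fell and 5 did not pass, where 19.0% of all genes tested rose and 3.51% fell. Akr1b3 and Akr1b7 can make prostaglandin F2alpha, and its receptor Ptgfr stood at 237 ± 29.4 CPM in Fyn-KO with 1 count in all WT libraries together (edgeR adjusted p = 0.00775). Ptges2, a prostaglandin E synthase, stood at 22.1 ± 8.27 CPM in Fyn-KO and Ptger2, a receptor of prostaglandin E2, at 8.58 ± 5.15 CPM, both with no count in WT. Ptgs1, the cyclooxygenase 1 gene, stood at 8.97 ± 2.43 CPM in Fyn-KO and had 2 counts in WT. Ptgs2, the inducible cyclooxygenase, was counted in Fyn-KO replicate 1 alone. Over the list, log2 fold changes had a median of 7.16, and Ptgfr is also on the list of ovarian markers. Ptgds, a prostaglandin D synthase, was lower at an unadjusted p under 0.05, and it fell by DESeq2 and without WT replicate 2.

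Of 14 tested of 20 genes of steroid hormone synthesis, 4 rose, none fell and 10 did not pass, where 19.0% of all genes tested rose and 3.51% fell. At an unadjusted p under 0.05 (edgeR), 10 were higher and 0 lower, and DESeq2 called 11 higher and 0 lower. The 4 that rose by adjusted p in edgeR were Cyp11b1, Cyp17a1, Cyp19a1 and Hsd17b1. They stood at 84.5 ± 18.3, 27.9 ± 10.5, 7.99 ± 3.67 and 12.02 ± 5.55 CPM in Fyn-KO (SD, n = 4), each with no count in WT. Over the list, log2 fold changes had a median of 7.31 and 12 of its genes had each Fyn-KO library above each WT library, as had 30.1% of all genes tested. Without WT replicate 2, 7 rose, and without WT replicate 3, 9. Star, Hsd3b1 and Cyp11a1 were among the 10 that did not pass. Without WT replicate 3 they rose, with log2 fold changes of 18.7, 19.2 and 12.4. The list's summed level was 24258 to 28937 CPM in Fyn-KO, against 355 to 436 CPM in WT, and most of the Fyn-KO sum lay outside the 4 genes that rose.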

How the data were processed

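RNA from tdTomato-sorted tumour cells of 4 Fyn-KO and 3 WT mice was sequenced with QuantSeq. The deposited values are counts per gene symbol, made by the authors before deposit, with no normalization. Per the submitters' processing notes, GRCm38 (mm10), Bowtie2, bedtools and DESeq2 1.32.0 were used, and their settings are not stated. The table holds 23282 entries (46 repeated symbols). Column WT3 bears a name that does not single out 1 sample, so it was used as a WT library only. Replicate numbers follow the column names, and the titles of the WT samples bear other numbers.

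CPM was computed from each library's total. The main test was edgeR 4.0.16 (R 4.3.3), quasi-likelihood, TMM scaling, genes kept at a count of 10 by filterByExpr (total 15), Benjamini-Hochberg adjusted p under 0.05. Standard errors are the log2 fold change over the root of F. Log2 fold changes are Fyn-KO minus WT. The script was tested on simulated counts with known changes, with a fixed spread between libraries and with the spread estimated from these libraries. Limits for passing were set for the fixed spread only. The check therefore does not vouch for recovery at the spread of these libraries. Alternatives were RLE scaling, library totals, no filter, DESeq2 1.42.0, a replicate block, Akr1c12 and Akr1c13 added up, and each library left out. No libraries of a group were alike within sampling noise.

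Loci, overlaps and identities came from GENCODE M21 and Biopython 1.88 alignments, and promoters from RefSeq for 8 of the 9 genes. The genes, the 12 lists and the tests were chosen with earlier results of these data known. Named genes are the 9, the other aldo-keto reductases, up to 4 of each pathway list by p, and the 5 nearest to Akr1cl. Ptgs2, Ptgds, Rn45s, Star, Hsd3b1 and Cyp11a1 were named after their values were seen.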

Additional observations from a re-analysis of the deposited data

Results flagged for a closer look

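Akr1c6, a liver enzyme of the 1C block, stood at 0.107 CPM in Fyn-KO replicate 1, which is 1 count, and at 0 in the other Fyn-KO libraries and in WT. It was noted because that library lies apart from the other 3. The rule sets the gap against the range of the libraries, and it is always met where 1 library alone holds counts. The flag therefore says nothing more about Akr1c6, and 1 count is below the floor of 3.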

How the results depend on the processing

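Over all genes tested, 2493 were higher and 461 lower in Fyn-KO. DESeq2 called 3564 higher and 918 lower. It called 2 other aldo-keto reductases, 12 carbonyl enzymes, 5 NADPH and NRF2 genes and 11 steroid genes higher, and 1 carbonyl, 1 NADPH and NRF2 and 1 prostaglandin gene lower. Leaving out each library in turn gave 2190 to 4585 higher and 247 to 839 lower over all genes, the extremes being without Fyn-KO replicate 1, WT replicate 2 and Fyn-KO replicate 2. In the same fits 5 to 6 of the 9 genes were higher, 0 to 1 other aldo-keto reductases, 6 to 13 carbonyl genes (0 to 1 lower), 2 to 9 NADPH and NRF2 genes (0 to 2 lower), 4 to 9 steroid genes and 7 to 10 prostaglandin genes (0 to 1 lower). Akr1c13 had a log2 fold change of -2.73 once the counts of Akr1c12 were added. Akr1a1 ranged from -0.58 to 0.37 (without WT replicate 3). The cause was not tested. RLE scaling, library totals and no filter moved no count by over 1.5 times. Akr1c12 did not pass the filter of the main test, so its fits without that filter have no main value beside them.

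Libraries with the same column number showed no shared deviation: deviations from the group means correlated at -0.0135, -0.0047 and -0.0227 between them. No WT library correlated best with its own column number. The titles of the WT samples bear other numbers than the columns. By title WT replicate 1 is number 3, and it correlated best with Fyn-KO replicate 3, at 0.0217. A block by title was not fitted. A replicate block by column number gave 188 higher and 135 lower over all genes, 2 of the 9 genes (Akr1cl and Akr1b7), 3 carbonyl, 7 steroid and 1 prostaglandin gene higher.

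The depth of 8976745 to 16371244 counts puts the floor of 3 counts at 0.334 CPM (Fyn-KO) or 0.252 CPM (WT). The 3 WT libraries differ widely, so genes counted in 1 of them alone have no stable WT level.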
